A study of Arabidopsis thaliana with 12 samples.

Results

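In rosette leaves of Arabidopsis exposed to gaseous formaldehyde for 150 min, 194 probe sets had a lower level at the low dose and a higher level at the high dose than in clean air. They were chosen from 22746 probe sets of the Affymetrix ATH1 array by their group means on the deposited log2 scale. The low mean had to lie at least 0.8 below the clean-air mean, and the high mean at least 0.8 above it. The clean-air mean and all 3 high arrays also had to be above a log2 value of 4, a floor set above the lowest value on these arrays. The differences from clean air therefore chose the members, and they are given here as a description without a test. The opposite pattern, with the same step and the same floor for the low arrays and the clean-air mean, held for 58 probe sets.

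The 12 arrays came from 12 wild-type Columbia plants, 7 weeks old, with 3 plants in each of 4 groups. Before treatment all plants spent 72 h in constant light at 24 °C. The plants in clean air (less than 0.04 ppm formaldehyde), at low exposure (1 to 2 ppm) and at high exposure (14 to 16 ppm) were in a ventilated chamber, and a further group stayed outside it (less than 0.08 ppm). The 3 plants of a chamber condition were treated together, which means that a group cannot be told apart from its run, and p-values cover the spread between plants of 1 run. Leaves are a mixture of cell types, and in such bulk samples fewer cells of a type and less RNA per cell cannot be told apart.

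Formaldehyde is a small reactive aldehyde that binds proteins and nucleic acids. Plant cells meet damaged proteins with chaperones, which hold or refold them, and meet many sudden stimuli with a calcium signal that calmodulin-like proteins read. Transcripts of several calmodulin-like genes are known to change quickly after touch or wounding, and those of cold-regulated genes to follow the circadian clock as well as temperature.

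Across the arrays the median log2 value lay between 5.71 and 5.90, and replicate arrays of a group correlated over all probe sets at r between 0.985 and 0.996. Control probe sets that set the 3' against the 5' end of the same transcript differed by 1.21 ± 0.05 (log2, SD, n = 3) in clean air, 1.47 ± 0.04 at low exposure, 1.60 ± 0.21 at high exposure and 1.12 ± 0.04 outside. This difference widens as RNA is degraded, it moved with the groups, and its part in the results below was not tested. The spike-in control bioC averaged 6.53 ± 0.26 in clean air, 8.78 ± 0.13 at low exposure, 7.23 ± 0.23 at high exposure and 6.99 ± 0.21 outside. It also moved with the groups and was highest at low exposure, and its part in the low-dose steps was not tested. The shift to spike-in controls given below used bioB, bioD and cre and left bioC out. RCA, the Rubisco activase of mesophyll cells and the 1 of 6 mesophyll markers with a named probe set, averaged 15.01 ± 0.11 in clean air, 15.02 ± 0.04 at low exposure, 14.75 ± 0.08 at high exposure and 15.12 ± 0.03 outside. Of 7 guard cell markers 4 were named, and SPCH and MUTE, which mark the early stomatal lineage, were near the lowest value of 2.11 in all groups. The summed log2 value of the named guard cell markers ranged from 19.29 to 21.03 in clean air, 20.63 to 21.78 at low exposure, 19.07 to 21.49 at high exposure and 19.55 to 19.83 outside. The trichome marker TRY, 1 of 5, ranged from 4.29 to 6.13 in clean air, 4.67 to 6.57 at low exposure, 2.71 to 3.2 at high exposure and 5.05 to 6.38 outside, and its part in the results was not tested. The phloem marker SWEET11, 1 of 4, ranged from 12.68 to 12.95 in clean air, 12.88 to 13.18 at low exposure, 11.77 to 12.59 at high exposure and 12.36 to 13 outside. Of 3 markers of dividing cells AUR1 was named, with a range of 2.84 to 3.63 in clean air, 4.49 to 4.97 at low exposure, 3.35 to 3.66 at high exposure and 3.31 to 3.8 outside. None of the xylem or root markers had a named probe set.

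The 194 members made up 9.35% of the 2075 probe sets that met the high-dose condition and 12.5% of the 1551 that met the low-dose condition. Among the members the high-dose step was the larger one in 133 and the low-dose step in 61. The step at low exposure had a median of -1.21 and ran from -4.05 to -0.81, and the step at high exposure had a median of 1.67 and ran from 0.81 to 6.64 (log2). Over all 13874 probe sets tested, the medians were -0.01 at low exposure and -0.10 at high exposure. The members' median level was 7.21 in clean air, 5.87 at low exposure, 9.35 at high exposure and 7.53 outside (log2 of group means). In 39 members the low mean was below 4, where values have no reliable order. Steps are printed from the deposited values, and a fold given as "at least" takes the low group at 4.

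**Figure D1:**
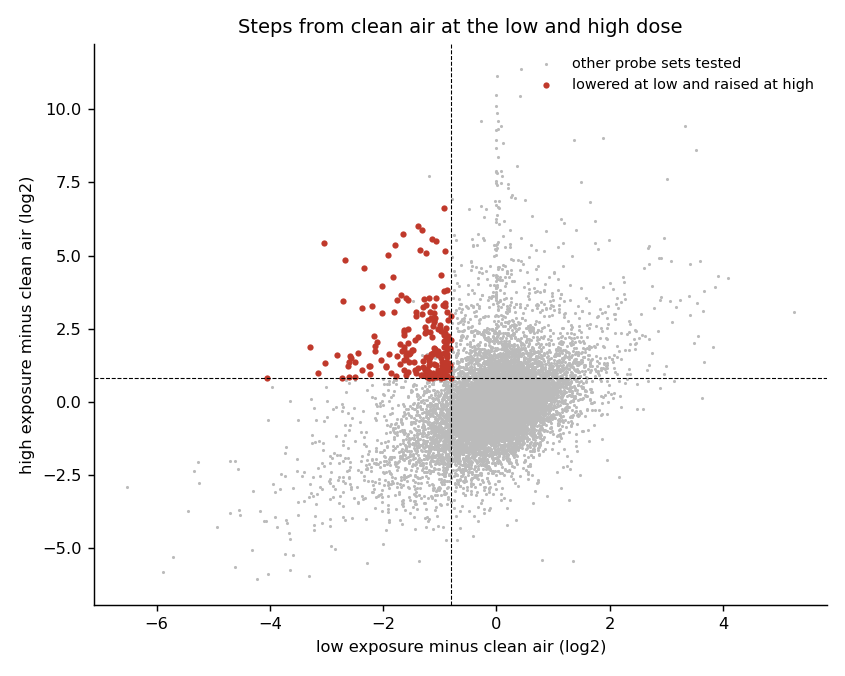
Difference from clean air at low exposure (horizontal axis, log2) and at high exposure (vertical axis, log2) for all 13874 probe sets tested, with the 194 members in red and the step of 0.8 as dashed lines. The members fill the upper left corner, from -4.05 to -0.81 at low exposure and from 0.81 to 6.64 at high exposure.

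The separation between single plants was less even than that between means. In limma's fit over all probe sets (Benjamini-Hochberg adjusted p under 0.05), 133 members were called higher at high exposure than in clean air (68.6% of the members, beside 22.8% of all probe sets tested). At low exposure 79 were called lower than in clean air (40.7% beside 11.4%), and 32 without clean-air plant 3. Both shares follow from contrasts that chose the members, and nothing is read from them. All 3 high plants were above all 3 clean-air plants in 124 members (63.9%, with 27.1% over all probe sets). All 3 low plants were below all 3 clean-air plants in 106 (54.6%, with 20.8%), and both held in 78 (40.2%, with 2.28%). Between the doses 191 were called higher at high than at low exposure (98.5%, beside 21.1%), again on the arrays of the rule.

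Plants of the same group differed more at the members than at other probe sets. The members' median SD within a group was 0.74 in clean air, 0.54 at low exposure, 0.44 at high exposure and 0.6 outside. Over all probe sets tested it was 0.2 in clean air, 0.23 at low exposure, 0.21 at high exposure and 0.24 outside. In clean air, at high exposure and outside, many members shared the order of plants. At low exposure they were split. Low plant 3 was the highest of its group in 76 members (39.2%, beside 30.4% of all probe sets tested) and the lowest in 73 (37.6%, beside 42.4%). Clean-air plant 1 was the lowest of its group in 146 members (75.3%, beside 35.9% of all probe sets tested), and clean-air plant 3 was the highest in 136 (70.1%, beside 27.3%). High plant 1 was the lowest of its group in 141 (72.7%, beside 34.7%), and outside plant 2 was the highest in 113 (58.2%, beside 30.0%). The 3' minus 5' difference of the controls was highest, at 1.83, in high plant 1, and its part in this ordering was not tested.

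**Figure D2:**
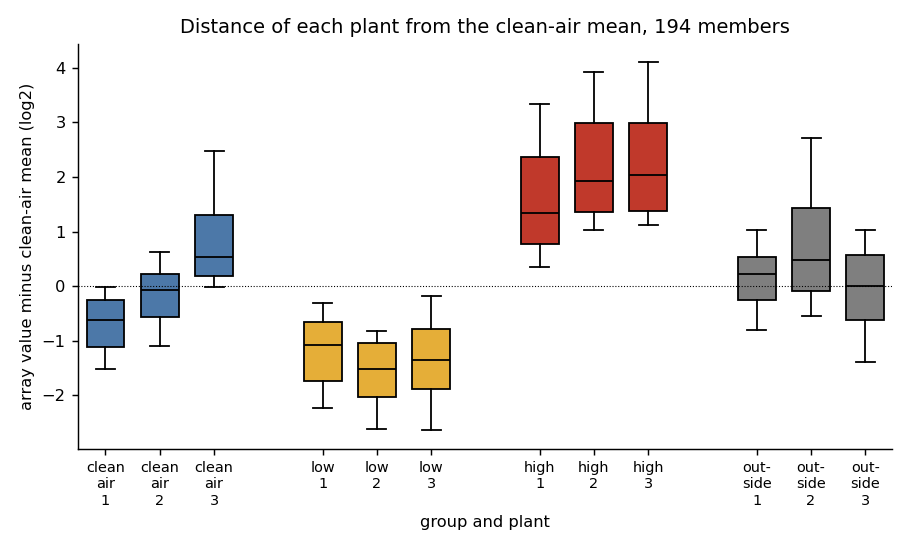
Distance of each of the 12 plants from the clean-air mean (vertical axis, log2) over the 194 members, by group and plant (horizontal axis). Boxes span the quartiles, centre lines are medians and whiskers reach the 10th and 90th percentiles; the clean-air medians run from -0.62 in plant 1 to 0.54 in plant 3, while all low medians lie between -1.51 and -1.08 and all high medians between 1.34 and 2.04.

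The spread in clean air was larger among probe sets that met the low-dose condition of the rule. Among 1440 probe sets that met the high-dose condition and had a low step under 0.8 in size, the median SD in clean air was 0.22, and clean-air plant 1 was lowest in 34.6%. Among 431 that met the low-dose condition and had a high step under 0.8 in size, that SD was 0.44, and clean-air plant 1 was lowest in 76.1%. The 58 probe sets with the opposite pattern showed the reverse order, with clean-air plant 1 highest in 77.6% and plant 3 lowest in 82.8%. The clean-air mean enters the rule, so a plant that lifts it also helps a probe set to pass at low exposure, and these clean-air shares are not independent of the choice of members.

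Clean-air plant 3 stood more than 2 log2 units above both other clean-air plants in 36 members (18.6%, beside 0.793% of all probe sets tested). In 34 of these 36 outside plant 2 was the highest outside plant, beside 79 of the other 158 members (94.4% and 50.0%). In 59 members clean-air plant 3 was at or above the lowest high plant, and in 76 clean-air plant 1 was at or below the highest low plant. Without clean-air plant 3, 76 members no longer met the rule, and the low-dose step turned positive in 16. Without it the median low-dose step was -0.96 and the median high-dose step 2.12. Leaving out clean-air plant 1 removed 44 members and turned no step. The rule was met with any 1 of its 9 arrays left out in 57 members, of which 32 are named genes. In these 57 the low-dose step had a median of -1.59 and the high-dose step a median of 2.03.

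**Figure D3:**
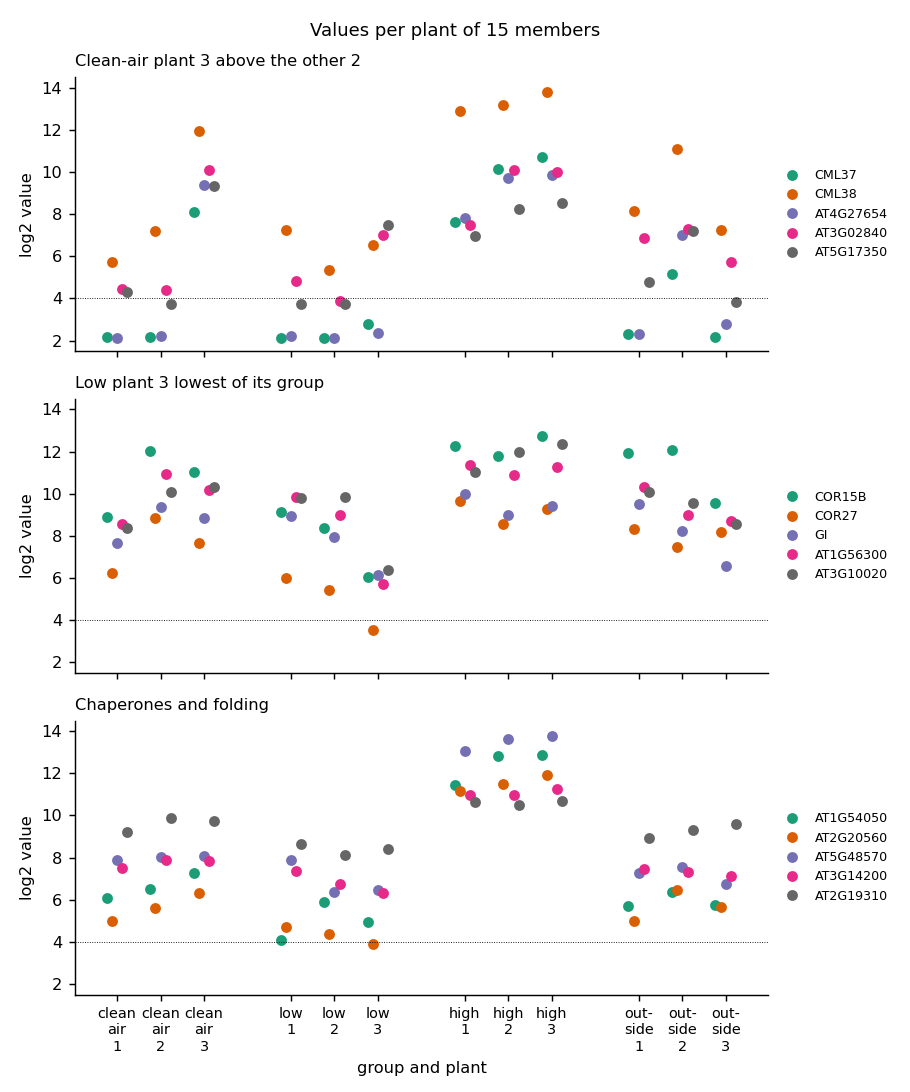
Log2 values per plant (vertical axis) of selected named members, chosen after their values were seen, by group and plant (horizontal axis); the dotted line is the floor of 4 and points are shifted sideways by gene so that they do not hide each other. In the top panel clean-air plant 3 lies near the high plants while the other clean-air plants lie near the low ones, in the middle panel low plant 3 is the lowest plant of its group, and in the bottom panel all high plants lie above all others.

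Chaperone and folding genes reached high-dose steps of up to 5.89. Of the 101 members with a single named gene, 7 belong to this role, with high-dose steps from 1.0 upward and low-dose steps of -1.7 to -0.89. AT1G54050, a small heat shock protein of class III that binds unfolding proteins, read 6.08, 6.5 and 7.28 in clean air, 4.1, 5.88 and 4.93 at low exposure, 11.43, 12.81 and 12.86 at high exposure and 5.71, 6.35 and 5.76 outside the chamber. Its high plants lay far above all others, and its low plants lay below all clean-air plants. The steps from clean air were -1.65 ± 0.5 at low exposure and 5.74 ± 0.5 at high exposure (SE). AT2G20560, a DnaJ protein that hands substrates to HSP70, read 5.01, 5.6 and 6.3 in clean air, 4.71, 4.36 and 3.91 at low exposure, 11.15, 11.51 and 11.92 at high exposure and 5.01, 6.44 and 5.65 outside the chamber. Here too the 3 high plants stood apart and the 3 low plants were below every control plant, with steps of -1.31 ± 0.4 at low exposure and 5.89 ± 0.4 at high exposure (SE). For AT5G48570 (ROF2), a peptidyl-prolyl isomerase of the FKBP family, the values were 7.87, 8.01 and 8.05 in clean air, 7.88, 6.38 and 6.47 at low exposure, 13.07, 13.61 and 13.78 at high exposure and 7.28, 7.56 and 6.75 outside the chamber. One low plant matched the clean-air plants and the others were lower, so the low and clean-air groups overlapped, while the high plants did not overlap with any group. The steps of AT5G48570 were -1.07 ± 0.36 at low exposure and 5.51 ± 0.36 at high exposure (SE).

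Further genes of this role had smaller or less even steps. The DnaJ gene AT3G14200 had steps of -0.94 (low) and 3.31 (high), and AT2G19310, a small heat shock-like protein, had -1.2 (low) and 1 (high). The cyclophilin AT2G21130, another prolyl isomerase, had -0.89 (low) and 1.58 (high). AT1G56300, also a DnaJ protein, read 8.55, 10.92 and 10.19 in clean air, 9.86, 8.97 and 5.73 at low exposure, 11.35, 10.9 and 11.26 at high exposure and 10.32, 8.99 and 8.72 outside the chamber. Its low mean rested on low plant 3, and it did not meet the rule without that plant or without clean-air plant 1. Clean air minus outside had a median of 0.45 over the 7 genes, beside 0.02 over all probe sets tested. Of 26 genes on the heat shock list 7 had a named probe set and 6 were tested. All 6 were called higher at high exposure than in clean air (22.8% of all probe sets were). At low exposure 1 was called lower (11.4% were), and 2 of the 6 were members.

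Clean-air plants disagreed widely in 3 of the 5 calcium sensor genes, with an SD of 3.43 for CML37, 3.24 for CML38 and 3.12 for AT3G01830. CML37, a calmodulin-like protein induced by touch and wounding, read 2.16, 2.16 and 8.1 in clean air, 2.14, 2.14 and 2.77 at low exposure, 7.65, 10.14 and 10.69 at high exposure and 2.29, 5.16 and 2.15 outside the chamber. Both other clean-air plants and all low plants were at background, so the clean-air mean above 4 rested on plant 3, which lay among the high plants. Without that plant the low-dose step of CML37 was 0.19 and its high-dose step 7.33, both from background levels. CML38, its close relative, which binds calcium and localises to RNA granules under low oxygen, read 5.74, 7.19 and 11.93 in clean air, 7.24, 5.33 and 6.55 at low exposure, 12.9, 13.2 and 13.81 at high exposure and 8.17, 11.1 and 7.25 outside the chamber. Clean-air plant 3 and outside plant 2 were far above the rest of their groups, and the low plants were within or next to the range of the other clean-air plants. Without clean-air plant 3 the low-dose step of CML38 was -0.09 and the high-dose step 6.84. The EF-hand gene AT3G01830 read 5.64, 4.65 and 10.47 in clean air, 5.56, 3.13 and 7.35 at low exposure, 8.92, 11.18 and 11.09 at high exposure and 7.42, 10.57 and 8 outside the chamber. It had the same 2 control plants high, and its low plants overlapped with its clean-air plants. Its low-dose step was 0.2 without clean-air plant 3.

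AT1G21550, an EF-hand calcium-binding protein, had a smaller clean-air SD of 1.21. Its values were 4.34, 6.64 and 6.14 in clean air, 3.47, 3.09 and 2.55 at low exposure, 9.78, 10.71 and 11.17 at high exposure and 6.83, 7.87 and 6.75 outside the chamber. All low plants were below 4 and below every clean-air plant, and all high plants were above every other plant. The high mean was at least 93.9-fold above the low group taken at the floor. AT3G10300, another EF-hand protein, had steps of -1.03 (low) and 2.48 (high). Of 31 genes on the touch and rapid stress list 7 were tested, 3 of them the members CML37, CML38 and AT3G01830. Of the 7, 6 were called higher at high exposure (22.8% of all probe sets were). At low exposure limma called 0 lower (11.4% of all probe sets were), and the list's median was -0.61, beside -0.01 over all probe sets. At limma's unadjusted p under 0.05, 1 was lower, a threshold for which no share over all probe sets is given. PUB23, a U-box ubiquitin ligase of that list which is no member, read 4.09, 5.94 and 10.29 in clean air, 6.05, 5.33 and 7.38 at low exposure, 9.06, 10.39 and 10.56 at high exposure and 7.01, 8.21 and 7.47 outside the chamber, with clean-air plant 3 among the high plants as well.

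An adjacent gene run shared the clean-air plant 3 pattern. AT4G27652, AT4G27654 and AT4G27657 lie next to each other on chromosome 4 with no gene between them in the RefSeq annotation of TAIR10.1. All 3 are members, while the nearby gene PEL1 (AT4G27650) is not, with steps of -0.09 (low) and 0.14 (high). AT4G27654 read 2.11, 2.21 and 9.4 in clean air, 2.21, 2.11 and 2.37 at low exposure, 7.84, 9.73 and 9.88 at high exposure and 2.3, 7 and 2.77 outside the chamber. AT4G27652 read 5.8, 6.23 and 10.94 in clean air, 6.25, 5.5 and 7.71 at low exposure, 9.77, 11.06 and 11.34 at high exposure and 7.22, 7.88 and 6.58 outside the chamber. AT4G27657 read 5.37, 5.8 and 9.5 in clean air, 4.47, 3.33 and 7.6 at low exposure, 6.99, 9.14 and 9.22 at high exposure and 5.62, 6.41 and 4.96 outside the chamber. In each, clean-air plant 3 was within or above the range of the high plants and more than 2 units above the other clean-air plants, and each failed the rule without it. AT3G02840 and AT5G17350 showed the same order of plants. Without clean-air plant 3 their low-dose steps were 0.81 and 0.95, against steps of -1.08 and -0.81 with it.

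Genes of redox reactions and oxidation numbered 8, with high-dose steps of 0.89 to 6.02 and low-dose steps of -1.78 to -0.87. GRX480, a glutaredoxin that binds TGA factors and is induced by salicylic acid, read 4.11, 3.12 and 6.65 in clean air, 2.82, 2.6 and 4.31 at low exposure, 9.27, 11.33 and 11.36 at high exposure and 5.65, 7.76 and 7.16 outside the chamber. All high plants lay above all others, the outside plants overlapped with clean-air plant 3 alone, and the low plants overlapped with the lower clean-air plants. Its steps were -1.38 ± 0.91 at low exposure and 6.02 ± 0.91 at high exposure (SE). They were -0.37 (low) and 7.03 (high) without clean-air plant 3, and it then failed the rule. AT5G43450, a 2-oxoglutarate-dependent oxygenase, had a high-dose step of 5.09 and a low-dose step of -1.24, and it kept the rule whichever array was left out. The 2-oxoglutarate-dependent oxygenase AT5G05600, which inactivates jasmonic acid, had steps of -1.78 (low) and 0.89 (high) and a clean-air minus outside difference of -2.41 ± 0.91 (SE; limma adjusted p = 0.171), which did not pass the test. Without clean-air plant 1 the high-dose step of AT5G05600 was 0.43. The monooxygenase genes FMO and AT4G38540 had steps of -1.25 (low) and 1.52 (high) for FMO and -1.64 (low) and 2.45 (high) for AT4G38540. The aldo-keto reductase gene AT1G60730, of a family that reduces aldehydes and ketones, had steps of -0.87 (low) and 1.16 (high) with an SD of no more than 0.35 in any group.

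Cold and dehydration genes had the deepest low-dose steps among the roles, with a median of -2.38 for 6 genes, and high-dose steps of 0.81 to 2.23. Those steps chose the members, and the roles were set with the values in view, so this ranking is a description only. COR15B, a chloroplast protein that protects membranes during freezing, read 8.91, 12.03 and 11.05 in clean air, 9.12, 8.36 and 6.05 at low exposure, 12.24, 11.79 and 12.75 at high exposure and 11.95, 12.06 and 9.56 outside the chamber. The low plants lay at or below the lowest clean-air plant, except low plant 1, and the high plants overlapped with both control groups. Its steps were -2.82 ± 0.94 at low exposure and 1.6 ± 0.94 at high exposure (SE). LTI30, a dehydrin that binds membranes, read 6.42, 7.74 and 7.91 in clean air, 4.83, 5.3 and 5.46 at low exposure, 9.57, 9.21 and 9.98 at high exposure and 4.86, 8.86 and 5.47 outside the chamber. Its high plants were above, and its low plants below, all clean-air plants, while 2 of the outside plants were within the low range or next to it. The steps of LTI30 were -2.16 ± 0.83 at low exposure and 2.23 ± 0.83 at high exposure (SE). COR47, another dehydrin, read 10.23, 12.11 and 11.7 in clean air, 10.6, 9.82 and 9.3 at low exposure, 12.68, 11.88 and 12.71 at high exposure and 11.51, 12.87 and 11.01 outside the chamber. Clean-air plant 1 was within the low range and clean-air plant 2 within the high range, so neither step separated all plants. Without clean-air plant 1 the high-dose step was 0.72 for COR15B and 0.52 for COR47.

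COR27, a cold-induced regulator of the circadian clock, had steps of -2.59 (low) and 1.57 (high), and the temperature-induced lipocalin TIL, which protects membranes, had -1.06 (low) and 1.26 (high). AT5G13200, a GRAM domain protein, had -2.72 (low) and 0.81 (high). Without clean-air plant 1 the high-dose step was 0.9 for COR27 and 0.27 for AT5G13200. COR15A, which has the same role as COR15B, was no member. Its steps were -3.28 ± 0.77 at low exposure and 0.08 ± 0.77 at high exposure (SE), so its low mean was lower too while its high mean was close to clean air. Of 28 genes on the abscisic acid, cold and dehydration list 4 were tested, and 3 of these were members. Of the 4, 1 was called higher at high exposure (22.8% of all probe sets tested were) and 1 lower at low exposure (11.4% were). The gene called lower was COR15A, so none of the members on this list was called lower. At limma's unadjusted p under 0.05, 4 were lower at low exposure. No share over all probe sets is given for that threshold, and nothing is read from it.

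Light and clock genes included GI (GIGANTEA), a clock protein that controls flowering. It read 7.67, 9.37 and 8.84 in clean air, 8.94, 7.95 and 6.13 at low exposure, 9.98, 9.01 and 9.41 at high exposure and 9.53, 8.25 and 6.56 outside the chamber. The groups overlapped, low plant 3 was the lowest plant of all, and GI met the rule only with clean-air plants 1 and 2, low plant 3 and high plant 1 all included. AT2G47890, a B-box protein of the CONSTANS-like family, had steps of -2.03 (low) and 3.03 (high), and its high plants, at 11.11, 11.01 and 11.19, were all above the highest other plant at 9.07. FHL, which carries phytochrome A into the nucleus, had -1.27 (low) and 2.34 (high). All low plants of FHL were below 4, and its fall was at least 1.39-fold with the low group taken at 4. The plastid gene rbcL, for the large subunit of Rubisco, was counted in this role, though it is an enzyme gene and no light-signalling or clock gene. It had -1.12 (low) and 1.65 (high) with no overlap between the high plants and the others.

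**Figure D4:**
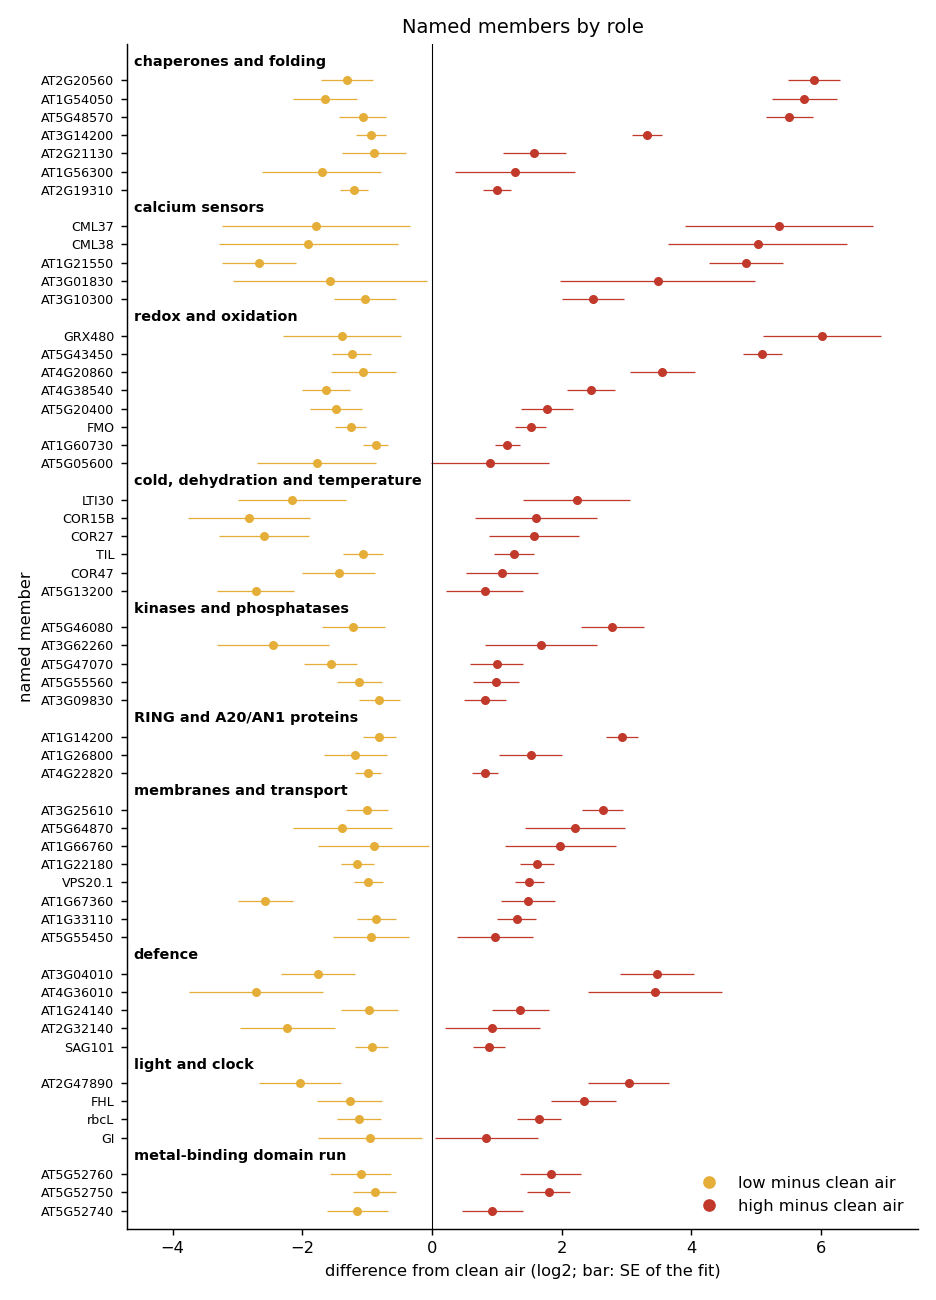
Differences from clean air (horizontal axis, log2, with the SE of the fit as bars) at low exposure (yellow) and at high exposure (red) for the 54 named members placed in a role (vertical axis, grouped by role). The chaperone, calcium and redox groups reach high-dose steps of 5.89, 5.35 and 6.02, and the cold and dehydration group has the lowest median at low exposure, -2.38. Roles were set with these values in view, so the order of the groups is a description only.

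Kinases and phosphatases contributed 5 members. The receptor-like cytoplasmic kinases AT5G47070 and AT3G09830, of the family that relays immune receptor signals, had steps of -1.56 (low) and 1 (high) for AT5G47070 and -0.81 (low) and 0.82 (high) for AT3G09830. The kinase AT5G46080 had -1.21 (low) and 2.78 (high), and the WNK family kinase AT5G55560 had -1.12 (low) and 0.99 (high) from levels near the floor. All low plants of both genes were below 4. With the low group taken at 4 the fall was at least 1.59-fold for AT5G46080 and at least 1.13-fold for AT5G55560. The protein phosphatase 2C gene AT3G62260 had -2.45 (low) and 1.68 (high), with clean-air plant 3 more than 2 units above the others. Without that plant the low-dose step was -1.36 for AT3G62260, -0.78 for AT5G46080 and -0.44 for AT3G09830. Among ubiquitin-related members, the RING genes AT1G14200 and AT1G26800 had -0.81 (low) and 2.93 (high) for AT1G14200 and -1.18 (low) and 1.52 (high) for AT1G26800, and the A20/AN1 zinc finger gene AT4G22820 had -0.98 (low) and 0.82 (high).

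Membrane and transport genes numbered 8, with high-dose steps of 0.97 to 2.63. AT3G25610, a P-type flippase that moves lipids between membrane leaflets, had steps of -1 (low) and 2.63 (high). AT1G67360, of the rubber elongation factor family found on lipid droplets, had the deepest low-dose step of this role, -2.57, and a high-dose step of 1.48, and it met the rule with any array left out. The ESCRT subunit VPS20.1, which sorts cargo into multivesicular bodies, had -0.98 (low) and 1.5 (high). The flotillin gene AT5G64870 had -1.38 (low) and 2.2 (high) and the Sec14-like gene AT1G22180 -1.15 (low) and 1.62 (high). The MATE transporters AT1G66760 and AT1G33110 had -0.9 (low) and 1.98 (high) for AT1G66760 and -0.86 (low) and 1.31 (high) for AT1G33110, and the lipid transfer protein gene AT5G55450 had -0.94 (low) and 0.97 (high). Without clean-air plant 3 the low-dose step was -0.48 for AT5G64870 and -0.15 for AT1G66760, and the high-dose step of AT5G55450 was 0.63. All low plants of AT5G64870 and AT1G66760 were below 4. With the low group taken at 4 the fall was at least 1.54-fold for AT5G64870 and at least 1.36-fold for AT1G66760.

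Defence genes numbered 5. SAG101, a lipase-like partner of EDS1 in immunity, read 7.52, 7.84 and 7.75 in clean air, 7.29, 6.38 and 6.65 at low exposure, 8.3, 8.59 and 8.86 at high exposure and 7.97, 7.62 and 7.37 outside the chamber. The low plants were below all clean-air plants and the high plants above them, with steps of -0.93 ± 0.25 at low exposure and 0.88 ± 0.25 at high exposure (SE), and SAG101 lost the rule in 3 of the 9 left-out settings. The thaumatin-like gene AT4G36010 and the glucanase family gene AT3G04010 had the larger high-dose steps of the group. Their steps were -2.71 (low) and 3.44 (high) for AT4G36010 and -1.75 (low) and 3.47 (high) for AT3G04010. All low plants of AT3G04010 were below 4, and its fall was at least 1.64-fold with the low group taken at 4. Outside plant 2, at 11.50 for AT4G36010, was above all 3 high plants. The TIR domain gene AT2G32140 and the metalloproteinase gene AT1G24140 had -2.23 (low) and 0.93 (high) for AT2G32140 and -0.97 (low) and 1.36 (high) for AT1G24140. The high-dose step of AT2G32140 was 0.47 without clean-air plant 1, and the low-dose step of AT1G24140 was -0.39 without clean-air plant 3. Of 19 genes on the salicylic acid and camalexin list only 2 had a named probe set, SAG101 and GRX480. Both were tested and both were members.

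A second adjacent run, AT5G52740, AT5G52750 and AT5G52760 on chromosome 5, encodes proteins with a heavy-metal-associated domain. The steps were -1.15 (low) and 0.93 (high) for AT5G52740, -0.88 (low) and 1.8 (high) for AT5G52750 and -1.1 (low) and 1.83 (high) for AT5G52760. Levels differed widely between them, with clean-air plants at 5.11 to 5.55 for AT5G52740 and at 10.40 to 11.78 for AT5G52750 (levels of different probe sets are not comparable as amounts). None of these 3 members met the rule in all left-out settings. Other named loci of the same stretch were no members. AT5G52720, AT5G52770 and AT5G52790 were near the lowest value of 2.11 in all groups, and AT5G52780 had steps of -0.2 (low) and -2.21 (high). The other lists fixed for these arrays held few members or none. The xenobiotic and electrophile list had 7 tested genes of 28, and the unfolded protein response list 3 of 12. All of these tested genes were called higher at high exposure (22.8% of all probe sets tested were), and none of them was a member. Of 29 WRKY, ERF, MYB and NAC regulators 3 were tested, and 2 were called higher at high exposure. Of 14 genes of pattern-triggered immunity 2 were tested, and both were called higher. No tested gene of either list was a member. The jasmonate list (1 tested of 27), the ethylene list (2 of 8) and the sugar starvation and autophagy list (7 of 10) held no member among the tested genes either. List genes without a named probe set could not be seen, so these counts do not describe whole pathways.

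Among the 12 members with the widest distance between doses were 3 probe sets without a named gene and the locus AT5G40690. Probe set 250781_at read 6.08, 7.72 and 9.06 in clean air, 5.79, 3.7 and 4.21 at low exposure, 13.02, 13.03 and 13.1 at high exposure and 7.5, 7.9 and 6.04 outside the chamber. It had the widest distance of all members, 8.48, and high plants within 0.08 of each other. Probe set 266590_at read 3.43, 4.9 and 4.48 in clean air, 3.76, 3.81 and 2.46 at low exposure, 10.27, 11.05 and 11.41 at high exposure and 4.1, 5.24 and 3.64 outside the chamber. It had the largest high-dose step among the members, 6.64, and all its low plants were below the floor. Probe set 256245_at read 7.64, 7.68 and 8.66 in clean air, 7.9, 6.16 and 6.52 at low exposure, 13.57, 13.52 and 13.61 at high exposure and 5.98, 8.11 and 7.08 outside the chamber. Its high plants were again tight, and low plant 1 overlapped with the clean-air plants. AT5G40690 read 5.02, 5.97 and 4.97 in clean air, 3.94, 3.76 and 4.22 at low exposure, 9.98, 10.76 and 10.82 at high exposure and 5.98, 5.32 and 6.86 outside the chamber. Its low plants were below, and its high plants above, all 6 control plants. The 93 members without a single named gene had low-dose steps of -4.05 to -0.82 with a median of -1.22 and high-dose steps of 0.81 to 6.64 with a median of 1.64.

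A further 47 named members were placed in no role. AT2G38790 had the lowest low-dose step among them, with -3.15 (low) and 0.99 (high), and AT2G41640 had -0.92 (low) and 3.78 (high). Without clean-air plant 1 the high-dose step of AT2G38790 was 0.3, and without clean-air plant 3 the low-dose step of AT2G41640 was -0.01. AT1G66080 read 5.42, 5.62 and 5.94 in clean air, 4.16, 3.94 and 4.12 at low exposure, 8.85, 9.19 and 9.59 at high exposure and 4.76, 4.66 and 5.11 outside the chamber. Its high plants were above and its low plants below all other plants, and it met the rule with any array left out. AT5G61820 and AT4G33985 met it in the same way, with steps of -1.42 (low) and 3.08 (high) for AT5G61820 and -1.1 (low) and 3.29 (high) for AT4G33985. AT4G29780 read 7.4, 8.21 and 12.31 in clean air, 6.47, 7 and 9.58 at low exposure, 10.31, 11.51 and 11.73 at high exposure and 8.35, 9.1 and 7.12 outside the chamber. Its clean-air plant 3 was above every high plant, and without that plant its low-dose step was -0.13. AT1G67920, AT4G24380, AT5G65300 and AT5G49280 also had clean-air plant 3 more than 2 units above the others and outside plant 2 as the highest outside plant.

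Plants outside the chamber took no part in the rule, so their levels at the members could be tested against clean air, with the clean-air arrays shared with the rule. The members' median difference, clean air minus outside, was -0.23 and ran from -2.72 to 1.45, beside 0.02 over all probe sets tested. It was above 0 in 72 members and below 0 in 122. By limma none was called higher in clean air (1.7% of all probe sets tested were), and 2 were called lower (1.03%, beside 1.34%). At an unadjusted p under 0.05, 6 were higher and 24 lower (12.4%, beside 8.65%). All 3 clean-air plants were above all 3 outside plants in 5 members (2.58%, beside 14.2%) and below them in 20 (10.3%, beside 11.4%).

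The 2 called members were AT1G32120 and probe set 255941_at, which has no named gene. AT1G32120 read 4.36, 4.56 and 4.8 in clean air, 3.2, 3.2 and 4 at low exposure, 6.59, 7.94 and 7.48 at high exposure and 6.33, 5.94 and 6.48 outside the chamber. All clean-air plants were below all outside plants, with a difference of -1.68 ± 0.34 (SE; limma adjusted p = 0.0263). Probe set 255941_at read 6.56, 6.58 and 6.62 in clean air, 4.03, 3.06 and 3.6 at low exposure, 6.85, 8.31 and 8.55 at high exposure and 8.2, 8.26 and 8.25 outside the chamber. The plants agreed closely within both control groups, and the difference was -1.65 ± 0.38 (SE; limma adjusted p = 0.0427). The call of AT1G32120 was lost in 7 of 20 alternative settings and that of 255941_at in 11, with limma adjusted p-values up to 0.105 and 0.14. Without clean-air plant 3, 8 members were called lower (4.12%, beside 1.29%). With arrays shifted to their spike-in controls the median of all probe sets was 0.28 and that of the members 0.02, and limma called 2 members higher and 0 lower. By role, the median difference was 0.45 for chaperones, 0.12 for light and clock genes (rbcL included) and 0.05 for defence genes. It was -0.44 for cold and dehydration genes, -0.45 for membrane and transport genes, -0.64 for redox genes and -0.7 for calcium sensors.

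**Figure D5:**
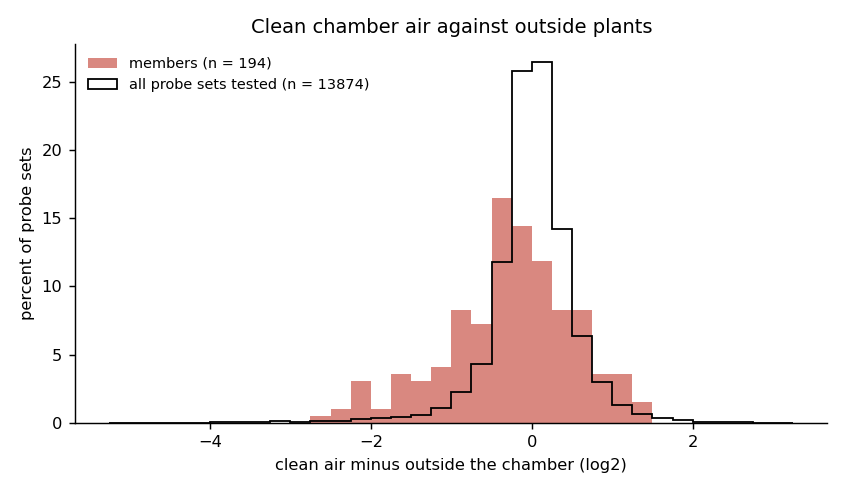
Distribution of the clean air minus outside difference (horizontal axis, log2) as a percent of probe sets (vertical axis) for the 194 members (red bars) and all 13874 probe sets tested (black outline). The members spread from -2.72 to 1.45 around a median of -0.23 with quartiles of -0.73 and 0.26, beside quartiles of -0.21 and 0.26 around 0.02 for all probe sets tested, and 2 members passed limma's test.

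The outside mean lay between the low and high means in 175 members, above the high mean in 15 and below the low mean in 4. It was within 0.8 of the clean-air mean in 131. Set against the outside plants, all 3 high plants were above all 6 control plants in 105 members (54.1%, beside 21.8% of all probe sets tested), and all 3 low plants were below all 6 in 93 (47.9%, beside 13.7%). Both held in 52 (26.8%, beside 1.0%). By limma 117 members were higher at high exposure than outside (60.3%, beside 24.8%), and 112 were lower at low exposure than outside (57.7%, beside 17.5%). The high and low arrays in these counts are the ones that chose the members. With outside plants in place of clean air the rule found 254 probe sets, of which 121 were among the 194.

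At the edge of the rule, 3 members had the smallest passing step. Probe set 254098_at read 12.78, 11.72 and 13.12 in clean air, 11.23, 11.79 and 2.46 at low exposure, 13.83, 13.01 and 13.2 at high exposure and 12.52, 13.27 and 13.01 outside the chamber. Low plant 3 was close to background while the other low plants were near the lowest clean-air plant, so that the low SD was 5.23, and the rule was still met without low plant 3. AT5G13200 read 8.12, 9.04 and 10.41 in clean air, 7.02, 6.03 and 6.37 at low exposure, 9.33, 10.26 and 10.41 at high exposure and 10.07, 11.14 and 9.24 outside the chamber. The high plants overlapped with the clean-air plants, and the low plants lay below all of them. AT3G09830 read 8.42, 8.49 and 9.56 in clean air, 8.26, 7.78 and 8 at low exposure, 9.16, 9.89 and 9.87 at high exposure and 9.41, 10.13 and 9.83 outside the chamber. Its high plants overlapped with clean-air plant 3, and the low plants lay below all clean-air plants.

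The 3 probe sets just outside the rule have no named gene. Probe set 260878_at read 7.35, 7.86 and 8.05 in clean air, 6.81, 6.89 and 7.04 at low exposure, 8.06, 8.63 and 8.97 at high exposure and 7.98, 7.75 and 7.61 outside the chamber. Probe set 248148_at read 5.35, 6.56 and 6.04 in clean air, 5.3, 4.78 and 5.48 at low exposure, 7.27, 6.88 and 6.81 at high exposure and 5.94, 6.06 and 7.3 outside the chamber. Probe set 256793_at read 5.98, 6.37 and 7.45 in clean air, 5.17, 5.51 and 6.75 at low exposure, 8.81, 9.8 and 9.31 at high exposure and 8.08, 8.31 and 7.8 outside the chamber. Their steps were -0.84 (low) and 0.8 (high), -0.8 (low) and 1 (high) and -0.79 (low) and 2.71 (high) in the same order. The low plants were below all clean-air plants in 260878_at, and the high plants were above all of them in each of the 3. Low plant 3 was more than 2 units below both other low plants in 8 members (4.12%, beside 0.296% of all probe sets tested), among them COR15B, AT1G56300, AT3G10020, AT2G38465 and 254098_at. In 8 other members the same plant was more than 2 units above both other low plants (4.12%, beside 0.396%).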

How the data were processed

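The deposited values are log2 expression values of 12 ATH1 arrays, which the authors made with GCRMA, per the submitters' processing notes. No version or option of it is given in the labels, and that the scale is log2 follows from the values' range. The lowest value on every array is 2.11, where signal was not above background. With 3 arrays per group, their number limits the precision.

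The 4 groups were fitted together over 12 arrays by limma 3.58.1 (R 4.3.3; lmFit, eBayes with trend), and single adjusted p-values are limma's, by Benjamini-Hochberg at 0.05. The 64 controls were left out, and probe sets above 4 on at least 3 arrays were tested (13874 of 22746, all 194 members among them, as the rule ensures). The fit was also run on simulated data, with independent plants and changes set in clean air alone. Those data lack the order of plants that many members shared in clean air, at high exposure and outside, so nothing about the members is read from that run. Figures used matplotlib 3.10.9 in Python 3.11.15. Differences are log2 with the SE of the fit.

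The members and lists were chosen with earlier results of these data known, and the role groups with the members' values in view. Values per plant were given to the 12 members with the largest high minus low difference, to members of the lists, to those called in clean air against outside, and to the 3 probe sets just inside and the 3 just outside the rule. Other genes with values per plant were picked with their values known. The array's annotation lists 14016 probe sets, 13513 of them with 1 gene, and a probe set without a single gene was left unnamed. Among the members 101 had 1 gene (100 matched in RefSeq, TAIR10.1), 3 had several and 90 none. Coordinates of the array's annotation were not used, since its build is not stated. The order of neighbouring genes came from the start positions in RefSeq (TAIR10.1). Sequences and product names were not used here, so the planned description of promoter motifs and product words was not run. The labels state no link between same-numbered plants of different groups, and they were not paired in the main fit. Alternatives covered the rule, scaling, low values, variance model, array weights and arrays left out.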

Additional observations from a re-analysis of the deposited data

How the results depend on the processing

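The count of 194 stayed within 1.5 times under 14 of 16 settings of the rule and was 324 with a step of 0.6 and 116 with a step of 1.0. It ranged from 149 to 225 with 1 array left out. The list was less steady than its count. Medians in place of means found 182 probe sets, 133 of them among the 194. The spike-in shift found 226, with 169 of the 194, and quantile normalization 187, with 181. Values below 4 raised to 4 gave 177, with 176 of the 194. Without clean-air plant 3 the rule found 149, with 118 of the 194. Members called in clean air against outside numbered 2, but 0 with no filter on low values, 7 with array weights and 1 with the replicate block, and 0 to 8 with 1 array left out, the 8 without clean-air plant 3. With the spike-in shift 2 were called higher and 0 lower, in place of 0 and 2, and the median of all probe sets moved to 0.28, from which the members' median of 0.02 again lay below. Over all probe sets 422 were called (236 higher, 186 lower), with 871 under the spike-in shift (775 and 96), 186 with no filter, 1188 with array weights, 103 with the 6 arrays alone, and 65 to 528 with 1 array left out. Members called lower at low exposure than in clean air numbered 79, with 38 without the filter, 48 with the 6 arrays alone and 32 to 95 with 1 array left out: 32 without clean-air plant 3, 40 without clean-air plant 2, 42 without low plant 2 and 52 without low plant 3. Over all alternatives, members called at high exposure ranged from 99 to 179 against clean air and from 95 to 151 against outside, both highest with array weights, and members called lower at low exposure than outside ranged from 81 with no filter to 130, all within 1.5 times. No difference of AT1G32120 or 255941_at reversed (ranges -1.83 to -1.56 and -1.67 to -1.63 with 1 array left out). Correlations of same-numbered plants' deviations over all probe sets tested ran from -0.328 to 0.326. Among the members, plant 1 was lowest in 75.3% in clean air, 72.7% at high exposure, 17.5% at low exposure and 30.4% outside. Plant 3 was highest in 70.1%, 54.1%, 39.2% and 11.9% in the same order (27.3%, 30.0%, 30.4% and 39.6% over all probe sets tested). Whether same-numbered plants share more than a number was not tested. The replicate block changed no other count by over 1.5 times. The cause of the shifts between settings was not tested.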
